A study of Mus musculus with 10 samples.

Results

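The genes described here are Nfe2l2, which encodes the transcription factor NRF2, Keap1, which encodes the adaptor that holds NRF2 in check, and 8 genes that NRF2 is known to switch on. The 8 targets are Nqo1, Hmox1, Gclc, Gclm, Gsr, Srxn1, Txnrd1 and Slc7a11. They were chosen by gene symbol, with no threshold on their values, and all 10 were found among the 54532 genes of the count files. All 10 were among the 18329 genes with enough reads to be tested.

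The counts come from poly(A) RNA of whole cochleae, taken from mtKeima mice aged 12 months, with 1 library per mouse. The 5 NR-treated mice had taken nicotinamide riboside (NR), a precursor of NAD+, with their drinking water at 7 mg/ml (24 mM), begun at 2 months of age and kept up for 10 months. The 5 non-treated mice, which the labels call Vehicle, had regular water. All 10 mice carried the mtKeima transgene, a fluorescent protein sent to the mitochondria whose colour follows pH, on a mixed genetic background that was wild type for cadherin23 and NNT. The labels give the mice as female, while the methods of the study describe males for this experiment. The question asked of these genes is whether long treatment with NR was accompanied by a different level of the NRF2 response in the old cochlea.

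NRF2 is made all the time, and in unstressed cells KEAP1 hands it to a ubiquitin ligase for destruction. Oxidants and electrophiles modify cysteines of KEAP1, after which NRF2 accumulates, pairs with a small MAF protein and binds antioxidant response elements near its target genes. The targets make and recycle glutathione and thioredoxin, import cystine, reduce quinones and break down heme. In the inner ear this response is known for guarding hair cells and neurons against noise, drugs that harm hearing, and ageing. NRF2 is controlled mainly at the protein level, which counts of mRNA do not measure.

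Libraries held 17060379 to 24419230 counted reads, and each member had between 293 and 3073 reads in every mouse. A level in CPM is the count scaled to a library size that the TMM method had adjusted, and genes are compared with each other in RPKM, which also divides by gene length. Across all 18329 tested genes, 9.71% had an unadjusted p at or below 0.05 between the groups in edgeR's quasi-likelihood test. In the lower direction this was 4.88% of tested genes and in the higher direction 4.83%, and 0% passed a Benjamini-Hochberg adjusted p of 0.05. Marker genes of hair cells, supporting cells, stria, spiral ganglion neurons and Schwann cells were all detected, and so were those of blood, bone, muscle and fat. A pair of non-treated mice, Vehicle 3 and Vehicle 4, stood apart. The summed level of 8 hair cell markers was 347 CPM and 390 CPM in them and 124 to 224 CPM in the other 8 mice, and that of 8 markers of supporting cells and the tectorial membrane was 2153 and 2294 CPM against 910 to 1298 CPM. A pair of NR-treated mice stood apart in another way. The summed level of 10 skeletal muscle markers was 971 CPM in NR 3 and 794 CPM in NR 5 and 11.3 to 88.5 CPM in the other 8 mice. In mean log2 CPM, the lists that moved most between the groups were muscle (by 2.45) and fat (by 1.65), both higher in NR-treated mice. At an unadjusted p of 0.05, 7 of 9 tested muscle markers and 5 of 8 tested fat markers were higher. The summed level of fat markers was 189.6 to 365 CPM against 147 to 184 CPM, without overlap. Lower at that p were, among others, 7 of 8 markers of supporting cells and the tectorial membrane. So were 5 of 10 markers of stria and fibrocytes and 6 of 8 pigment genes, all described below. Results for the members are therefore also given without either pair of mice, alternatives chosen after the values were seen.

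As a group, the NRF2 genes did not move together between NR-treated and non-treated cochleae. Only Srxn1, which was higher, and Slc7a11, which was lower, passed an unadjusted p of 0.05 in edgeR, which is 2 of 10 members against 9.71% of all tested genes. With 4 members higher and 6 lower in NR-treated mice, the median log2 fold change was -0.02, beside -0.01 over all tested genes. Without TMM scaling, 4 members were lower instead of 6. None of the 10 passed an adjusted p of 0.05 with edgeR, DESeq2 or limma voom, and the smallest adjusted p of a member in edgeR was 0.423. Of all tested genes, edgeR and limma voom called 0 at this level, and DESeq2, which tested 33153 genes, called 105. The groups overlapped in all 10 members, and 1.65% of tested genes had groups that did not overlap. Without Vehicle 3 and Vehicle 4, 1 of 10 members passed an unadjusted p of 0.05, beside 9.69% of all genes tested in that fit. It was neither of these genes but Gclm. Without NR 3 and NR 5, 0 members passed it, where edgeR called 4.50% of all genes it then tested. In that fit the log2 fold change was -0.28 for Slc7a11 (edgeR, unadjusted p = 0.0554), 0.14 for Srxn1 (unadjusted p = 0.145), -0.18 for Hmox1 and between -0.15 and 0.16 for the other 7 members.

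**Figure D1:**
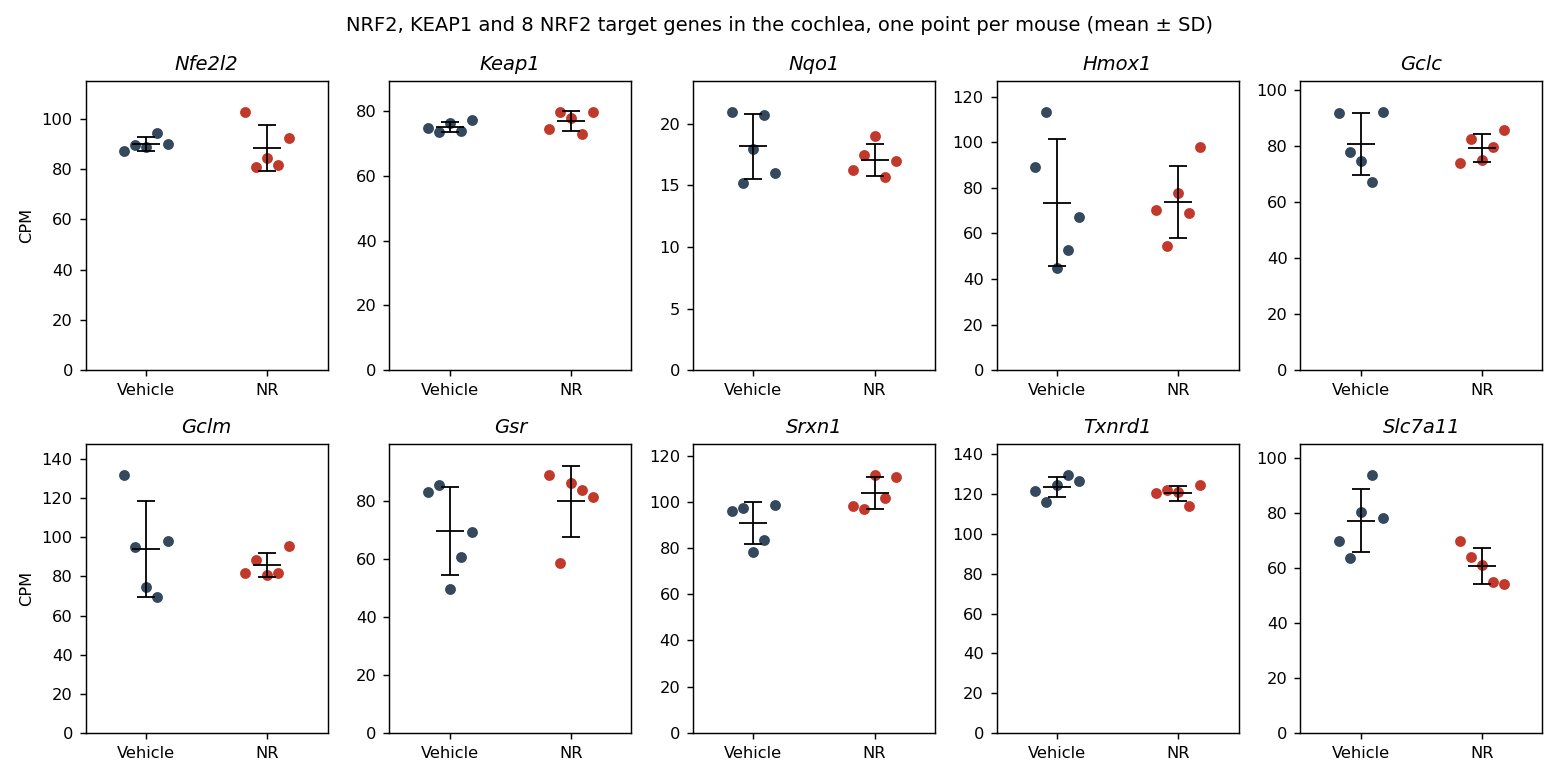
CPM of the 10 members in each of the 5 non-treated (Vehicle, dark) and 5 NR-treated (red) mice, 1 panel per gene, with each axis starting at 0. Points are mice in order of replicate number, and bars are the mean ± SD. The groups overlap in every panel, with the clearest shifts in Slc7a11 (60.8 against 77.2 CPM) and Srxn1 (103.9 against 90.8 CPM), while Hmox1 spreads from 44.6 to 113 CPM within the non-treated mice alone.

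The pair at the head of the pathway did not differ between the groups beyond the spread between mice. Nfe2l2 had 103, 80.8, 84.4, 81.5 and 92.4 CPM in NR 1 to NR 5 and 87.2, 89.4, 88.7, 94.3 and 89.9 CPM in Vehicle 1 to Vehicle 5. The 3 lowest levels were those of NR 2, NR 3 and NR 4, but NR 1 had the highest of all. Its log2 fold change was -0.03 ± 0.067 (SE, n = 5 mice per group; edgeR, adjusted p = 0.916), and -0.0027 without Vehicle 3 and Vehicle 4.

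Keap1 was among the most even genes of the cochlea. Its levels ran from 73.0 to 79.8 CPM in NR-treated mice and from 73.5 to 77.2 CPM in non-treated mice, and 0.829% of tested genes had a smaller SD within the groups on the log2 scale. The fold change was 1.02, with a 95% confidence interval of 0.960 to 1.09 (edgeR, adjusted p = 0.797). The log2 fold change was 0.03, and 0.04 without Vehicle 3 and Vehicle 4.

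The balance of the activator and its inhibitor was compared within each mouse. The log2 ratio of Nfe2l2 to Keap1 (CPM, not per length) had a mean of 0.194 ± 0.165 with NR and 0.258 ± 0.0594 without it (SD, 5 mice each), a difference of -0.06 (exact two-sided permutation test, p = 0.437, Benjamini-Hochberg adjusted p = 0.508 over both ratios tested). In 4 NR-treated mice the ratio was below that of every non-treated mouse, and in NR 1, at 0.461, it was above all of them. Without NR 1 the difference was -0.13, with the groups apart (exact two-sided permutation test, p = 0.00794, the smallest such a comparison of 4 and 5 mice can give), so the comparison turned on that mouse.

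Nqo1 encodes a quinone reductase and is the usual readout of NRF2 activity. It was the least counted member, with 15.7 to 19.0 CPM in NR-treated and 15.2 to 20.9 CPM in non-treated mice, and a log2 fold change of -0.09 ± 0.106 (SE; edgeR, adjusted p = 0.787), or -0.02 without Vehicle 3 and Vehicle 4. The highest and the lowest level were both found in non-treated mice.

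Hmox1 encodes heme oxygenase 1, which opens the heme ring and frees its iron. It varied more between mice than any other member. The levels were 70.4, 54.3, 77.6, 68.9 and 97.9 CPM in NR 1 to NR 5 and 89.3, 113, 44.6, 52.9 and 67.3 CPM in Vehicle 1 to Vehicle 5. The 2 lowest were Vehicle 3 and Vehicle 4 and the highest was Vehicle 2, so that the NR-treated mice lay inside the range of the non-treated. The log2 fold change was 0.006, with a 95% confidence interval of -0.53 to 0.54 (edgeR, adjusted p = 0.996), and it was -0.28 without Vehicle 3 and Vehicle 4 (edgeR, unadjusted p = 0.188).

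Gclc and Gclm encode the catalytic and the modifier subunit of glutamate-cysteine ligase, the enzyme that sets the pace of glutathione synthesis. Gclm had 82.0, 88.6, 81.0, 81.7 and 95.4 CPM in NR 1 to NR 5 and 132, 94.9, 74.9, 69.6 and 98.4 CPM in Vehicle 1 to Vehicle 5. The NR-treated mice were close to each other, whereas the non-treated mice held both the highest level, in Vehicle 1, and the 2 lowest, in Vehicle 3 and Vehicle 4. Its log2 fold change was -0.13 ± 0.150 (SE; edgeR, adjusted p = 0.782).

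Gclc had 73.9, 82.7, 74.9, 79.7 and 85.7 CPM in NR 1 to NR 5 and 91.9, 77.9, 74.7, 67.2 and 92.2 CPM in Vehicle 1 to Vehicle 5. Again the extremes at both ends were non-treated mice, and the log2 fold change was -0.02 ± 0.090 (SE; edgeR, adjusted p = 0.940). Without Vehicle 3 and Vehicle 4 the log2 fold change of Gclm was -0.33 (edgeR, unadjusted p = 0.0123, adjusted p = 0.353) and that of Gclc was -0.13 (unadjusted p = 0.105). Leaving out Vehicle 1 alone, the mouse highest in Gclm, turned the direction. Gclm then had 0.027 (edgeR, unadjusted p = 0.813) and Gclc 0.030 (unadjusted p = 0.746). The log2 ratio of Gclc to Gclm differed by 0.08 between the groups (exact two-sided permutation test, p = 0.508).

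Gsr encodes glutathione reductase, which returns oxidised glutathione to its working form. It had 89.1, 58.8, 86.4, 83.8 and 81.5 CPM in NR 1 to NR 5 and 83.2, 85.5, 49.7, 60.7 and 69.3 CPM in Vehicle 1 to Vehicle 5. Of the NR-treated mice 4 lay above 81 CPM and NR 2 far below them, in the range of Vehicle 3 and Vehicle 4. The log2 fold change was 0.20 ± 0.156 (SE; edgeR, adjusted p = 0.692), and 0.02 without Vehicle 3 and Vehicle 4.

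Txnrd1 encodes the cytosolic thioredoxin reductase. It was as even as Keap1, with 114 to 124 CPM in NR-treated and 116 to 129.8 CPM in non-treated mice, and 1.76% of tested genes had a smaller SD within the groups. Its fold change was 0.974, with a 95% confidence interval of 0.912 to 1.04 (edgeR, adjusted p = 0.784). The log2 fold change was -0.04, and -0.0056 without Vehicle 3 and Vehicle 4.

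Srxn1 encodes sulfiredoxin, which repairs peroxiredoxins that have been over-oxidised. It had 98.4, 97.0, 112, 102 and 110.6 CPM in NR 1 to NR 5 and 96.1, 97.2, 78.5, 83.6 and 98.8 CPM in Vehicle 1 to Vehicle 5. NR 3, NR 4 and NR 5 lay above every non-treated mouse, and the 2 lowest mice were Vehicle 3 and Vehicle 4. The fold change was 1.14, with a 95% confidence interval of 1.02 to 1.28 (edgeR, unadjusted p = 0.0251, adjusted p = 0.476). The exact two-sided permutation test of log2 CPM gave p = 0.0397. The log2 fold change was 0.19 ± 0.075 (SE), 0.18 without NR 3 (unadjusted p = 0.0502) and 0.10 without Vehicle 3 and Vehicle 4 (unadjusted p = 0.130).

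Slc7a11 encodes xCT, the subunit of a membrane exchanger that takes up cystine for glutathione and releases glutamate. It had 69.9, 63.9, 61.2, 54.9 and 54.1 CPM in NR 1 to NR 5 and 69.9, 63.5, 80.2, 93.9 and 78.3 CPM in Vehicle 1 to Vehicle 5. All 5 NR-treated mice were below the median of the non-treated, 3 were below every non-treated mouse, and Vehicle 2 alone kept the groups from being apart. The fold change was 0.788, with a 95% confidence interval of 0.670 to 0.927 (edgeR, unadjusted p = 0.00816, adjusted p = 0.423). The exact two-sided permutation test of log2 CPM gave p = 0.0317. The log2 fold change was -0.34 ± 0.107 (SE) and was -0.21 without Vehicle 3 and Vehicle 4 (edgeR, unadjusted p = 0.0651). Leaving out Vehicle 3 alone gave -0.31 and Vehicle 4 alone -0.26, both still at an unadjusted p below 0.05. The highest level belonged to Vehicle 4.

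**Figure D2:**
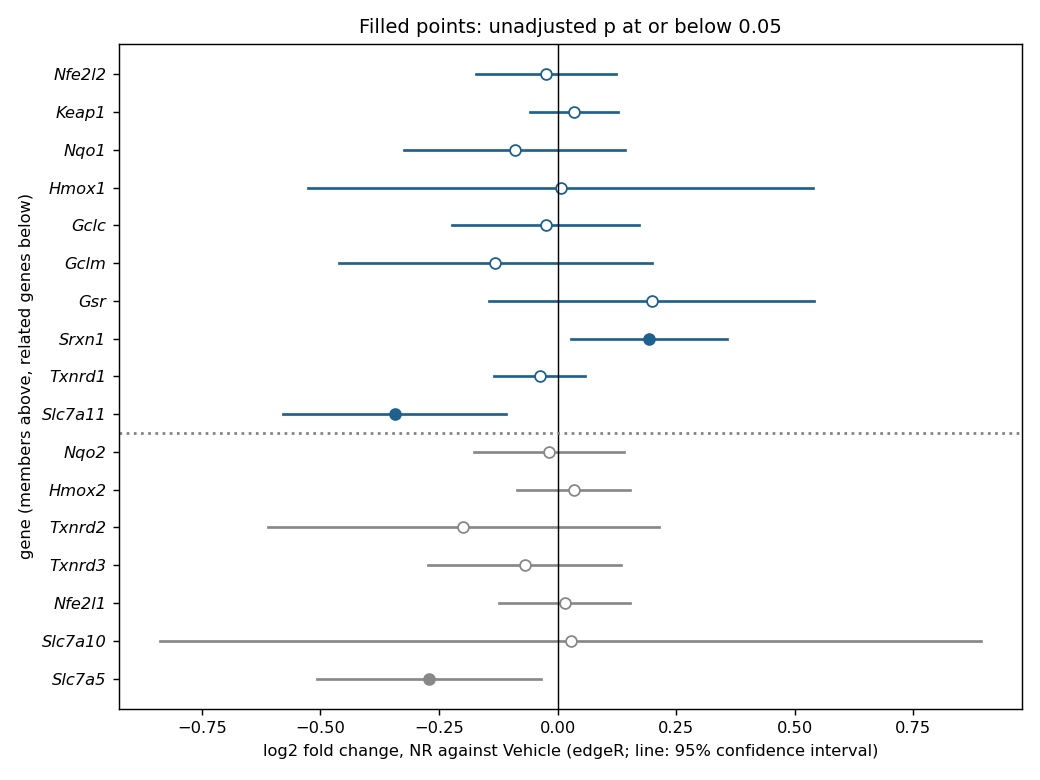
Log2 fold change of NR-treated against non-treated mice for the 10 members (blue, above the dotted line) and 7 related genes (grey), from edgeR with n = 5 per group. Lines are 95% confidence intervals and filled points have an unadjusted p at or below 0.05. The intervals of Keap1 and Txnrd1 are the narrowest among the members and that of Hmox1, from -0.53 to 0.54, the widest. Srxn1 lies to the right of 0, and Slc7a11 and Slc7a5 lie to the left.

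The promoters of the members were searched for the core of the antioxidant response element, TGACNNNGC, and for the related AP-1 motif TGAGTCA, each on both strands. A sequence that begins with the reverse complement of the second and goes on with GC holds both. The windows are from RefSeq on GRCm38.p6 and run from 250 bases before to 50 bases after a gene's start. Windows were given for 7 members, and those of Hmox1, Gclc and Gsr were not used here. The core was held by 4 of the 7 (Nfe2l2, Gclm, Txnrd1 and Srxn1), beside 12.4% of all 32851 windows and 14.0% of the 27025 genes with a window. The copy in Srxn1 begins 29 bases after the start. TGAGTCA was held by Srxn1 alone, with 2 copies before its start, beside 5.20% of all windows. The stretches that hold the matches before the start are shown 5′ to 3′ on the gene's strand, with the motif in capitals. In Gclm and Txnrd1 the core is on the opposite strand. They lie at chr2:152105412-152105495 for Srxn1 (plus strand), chr2:75704885-75704913 for Nfe2l2 (minus strand), chr3:122245413-122245441 for Gclm (plus strand) and chr10:82859104-82859132 for Txnrd1 (plus strand, 1 of its 3 starts).
Srxn1: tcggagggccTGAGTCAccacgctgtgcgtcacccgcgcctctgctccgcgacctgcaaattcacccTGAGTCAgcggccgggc
Nfe2l2: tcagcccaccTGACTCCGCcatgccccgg
Gclm: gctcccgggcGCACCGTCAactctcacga
Txnrd1: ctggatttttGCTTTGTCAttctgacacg
The matches describe letters in these windows. Of the 4 genes with the core, only Srxn1 passed an unadjusted p of 0.05 between the groups. Slc7a11, the other member that did, had neither motif in its window.

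Per length of its exons, Hmox1 was the most abundant member at 42.1 ± 12.2 RPKM (SD, n = 10 mice). Srxn1 followed at 34.5, Gsr at 27.2, Nfe2l2 at 23.5, Gclc at 21.3, Txnrd1 at 17.2, Keap1 at 16.2, Gclm at 14.3 and Nqo1 at 11.3 RPKM, and Slc7a11 was the lowest at 4.95 RPKM. Its length in the files, 13922 bases, is the union of its exons and would understate the level of a shorter transcript. All members but Slc7a11 were in the upper part of the tested genes, with Hmox1 above 93.6% of them and Nqo1 above 72.6%, whereas Slc7a11 was above 50.9%. Some neighbours in this order were not separated by the spread between mice. Hmox1 exceeded Srxn1 in 8 of 10 mice, Gsr exceeded Nfe2l2 in 8 and Nfe2l2 exceeded Gclc in 7. Srxn1 exceeded Gsr, Txnrd1 exceeded Keap1 and Nqo1 exceeded Slc7a11 in all 10 mice.

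Members did not follow each other from mouse to mouse as 1 group. Of the 45 pairs, 6 had a Pearson correlation of log2 CPM with a permutation p at or below 0.05 over the 10 mice, and 1 passed after Benjamini-Hochberg adjustment. That pair was Gclc and Gclm, the 2 subunits of the same enzyme (r = 0.858, permutation p = 0.00106, adjusted p = 0.0477). The rank correlation was 0.867 (permutation p = 0.00215, adjusted p = 0.0968), and r was 0.873 without the 2 mice farthest from the median of Gclc and 0.865 within the groups. Hmox1 and Gsr had r = 0.831 (permutation p = 0.00242, adjusted p = 0.0544, rank correlation 0.697, permutation p = 0.0304, adjusted p = 0.342), and r = 0.765 without the 2 mice farthest from the median of Hmox1. The members called between the groups ran opposite to each other. Srxn1 and Slc7a11 had r = -0.795 (permutation p = 0.00632, adjusted p = 0.0948, rank correlation -0.794, permutation p = 0.00898, adjusted p = 0.202), which was -0.599 without Vehicle 3 and Vehicle 4 and -0.615 within the groups. In the 9 pairs that hold Nfe2l2 the permutation p was between 0.256 and 0.943. The ends of their range were r = 0.398 with Slc7a11 (permutation p = 0.256, rank correlation 0.321, permutation p = 0.367) and r = -0.303 with Gclc (permutation p = 0.400, rank correlation -0.333, permutation p = 0.350).

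**Figure D3:**
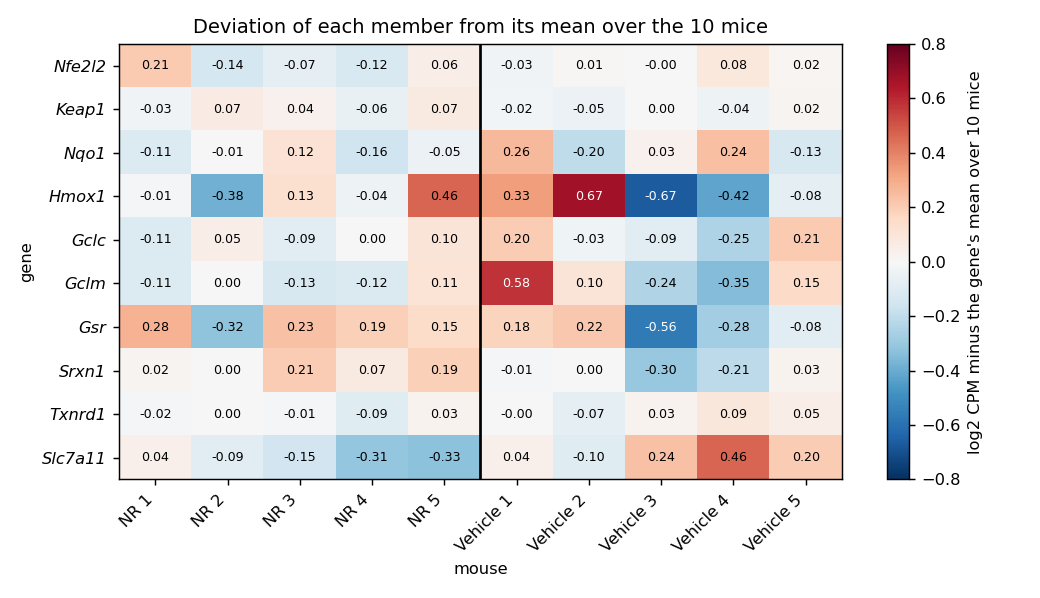
Log2 CPM of each member in each mouse minus the mean of that gene over the 10 mice, with NR-treated mice left of the line and non-treated mice right of it. Red is above and blue below the gene's mean. Hmox1, Gclc, Gclm, Gsr and Srxn1 are blue in Vehicle 3 and Vehicle 4 where Slc7a11 is red, and the rows of Keap1 and Txnrd1 stay pale in all mice.

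Since the RNA came from a whole organ, the levels of the members were set beside those of marker genes for the cell types it can hold. In such RNA, fewer cells of a type and less RNA per cell cannot be told apart. The 10 members and 14 marker lists give 140 relations over the 10 mice, of which 5 passed an adjusted p of 0.05 by Pearson's r and 0 by the rank correlation as well. A list entered these relations as the mean log2 CPM of its genes, not as their summed level. Gsr followed the neutrophil list, which holds S100a8, S100a9, Ngp, Camp and 6 others (r = 0.966, permutation p = 5e-05, adjusted p = 0.0056). Its rank correlation was 0.915 (permutation p = 0.00066, adjusted p = 0.0574), and r was 0.953 without Vehicle 3 and NR 2 and 0.961 within the groups. The summed neutrophil level was 1446 CPM in Vehicle 3 and 1464 CPM in NR 2, the mice lowest in Gsr, and reached 2332 to 5773 CPM in the rest. The group ranges of this sum were 1464 to 4884 CPM in NR-treated and 1446 to 5773 CPM in non-treated mice. The group medians lay further apart, at 4770 CPM in NR-treated and 2947 CPM in non-treated mice. Of the 10 markers, 9 had a log2 fold change above 0, and 2 were higher in NR-treated mice at an unadjusted p of 0.05. Of the 5 tested genes with the pattern most like that of Gsr (Camp, Gmfg, Mmp8, Pwp1 and Ly6g5b, r between 0.957 and 0.973 over 10 mice), Camp and Mmp8 are on the neutrophil list. They were the highest of 18329 correlations, and no p is given for them.

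Both subunits of glutamate-cysteine ligase followed the erythroid list, which holds 4 globin genes, Alas2 and 4 others. For Gclm r was 0.937 (permutation p = 0.00012, adjusted p = 0.0056, rank correlation 0.891, permutation p = 0.00123, adjusted p = 0.0574). For Gclc r was 0.926 (permutation p = 9e-05, adjusted p = 0.0056, rank correlation 0.903, permutation p = 0.00085, adjusted p = 0.0574). Without Vehicle 1 and Vehicle 4, the ends of the range, r was 0.868 for Gclm and 0.866 for Gclc. The summed erythroid level was 18062 CPM in Vehicle 1 and 4161 CPM in Vehicle 4, and 7450.4 to 13149 CPM in the other 8 mice. Between the groups, 0 of 9 erythroid markers passed an unadjusted p of 0.05.

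The remaining 2 relations that passed were those of Srxn1 with markers of spiral ganglion neurons and of Gsr with markers of supporting cells. Srxn1 and the neuronal list had r = 0.888 (permutation p = 0.00049, adjusted p = 0.0172, rank correlation 0.855, permutation p = 0.0028, adjusted p = 0.0969), and 0.728 without Vehicle 3 and Vehicle 4. The summed neuronal level was 5394 to 6082 CPM in NR-treated and 4079 to 6195 CPM in non-treated mice, with 1 of 8 markers higher in NR-treated mice at an unadjusted p of 0.05. The mean log2 CPM used for r gives much weight to Prph, the marker of widest spread. Prph ran from 3.44 to 147 CPM in NR-treated and from 2.03 to 120 CPM in non-treated mice. Vehicle 1 was at 8.82 in this mean, near the NR-treated mice, with a sum of 4725 CPM. Relations of the list without Prph were not tested. Gsr and the list of supporting cells and tectorial membrane had r = -0.871 (permutation p = 0.0007, adjusted p = 0.0196, rank correlation -0.794, permutation p = 0.00835, adjusted p = 0.167), and -0.740 without Vehicle 3 and Vehicle 4. Of that list, 7 of 8 markers were lower in NR-treated mice at an unadjusted p of 0.05, with a summed level of 910 to 1298 against 1098 to 2294 CPM. Srxn1 was also set beside muscle and fat. With the muscle list it had r = 0.726 (permutation p = 0.0167, adjusted p = 0.111, rank correlation 0.430, permutation p = 0.220), which fell to 0.400 without NR 3 and NR 5, the mice highest in both. With the adipocyte list it had r = 0.761 (permutation p = 0.00776, adjusted p = 0.0842, rank correlation 0.600, permutation p = 0.0714), and 0.421 without Vehicle 3 and Vehicle 4. Within the groups, r of Srxn1 was 0.796 with the neuronal, 0.574 with the muscle and 0.505 with the adipocyte list. The part of any of these cell types in the differences of Srxn1 or Gsr between the groups was not tested.

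Hmox1 passed the adjustment with none of the lists. By Pearson's r its largest relations were with neutrophils (r = 0.782, permutation p = 0.00795, adjusted p = 0.0842), hair cells (r = -0.761, permutation p = 0.011, adjusted p = 0.0962) and Schwann cells (r = 0.750, permutation p = 0.0135, adjusted p = 0.100). Within the groups these were 0.809, -0.763 and 0.765, and without the 2 mice farthest from the median of each list 0.563, -0.537 and 0.513. Their rank correlations were 0.612, -0.600 and 0.733 (permutation p = 0.067, 0.075 and 0.02). By rank the largest relation of Hmox1 was with stria and fibrocytes (rank correlation -0.782, permutation p = 0.0104, adjusted p = 0.174). The genes with the pattern most like Hmox1 were Rbfa, Adgrg1, Slc40a1, Kng1 and Rap2a, with r between 0.943 and 0.965 over the 10 mice (the highest of 18329, given without a p). Slc40a1 encodes ferroportin, the exporter of the iron that heme breakdown sets free. It had 34.8, 25.9, 48.5, 37.7 and 52.4 CPM in NR 1 to NR 5 and 52.3, 57.2, 20.8, 31.4 and 38.1 CPM in Vehicle 1 to Vehicle 5. The highest and lowest mice, Vehicle 2 and Vehicle 3, were those of Hmox1.

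Slc7a11 was set beside pigment cell genes as well, a list chosen after its values were seen, because cystine taken up by xCT is known to feed pigment synthesis in melanocytes. Of the 8 pigment genes, 6 were lower in NR-treated mice at an unadjusted p of 0.05, and the summed level of all 8 was 345 to 578 CPM against 651 to 1221 CPM, without overlap. In mean log2 CPM, the measure used for r, the groups overlapped, with 4.12 to 4.64 in NR-treated and 4.55 to 5.49 in non-treated mice. Dct, an enzyme of melanin synthesis, had 237 ± 66.4 CPM in NR-treated and 462 ± 159 CPM in non-treated mice (SD, n = 5 each; edgeR, adjusted p = 0.408). Slc7a11 and the pigment list had r = 0.713 over the 10 mice (permutation p = 0.0197, adjusted p = 0.117, rank correlation 0.709, permutation p = 0.0263, adjusted p = 0.194), 0.781 without Vehicle 4 and NR 1, and 0.418 within the groups. It did not pass the adjustment, and 5 other lists had an r of similar size with Slc7a11. The list of stria and fibrocytes, lower in NR-treated mice in 5 of 10 markers at 3927 to 6048 against 4717 to 7772 CPM, had r = 0.707 (permutation p = 0.0216, adjusted p = 0.118, rank correlation 0.624, permutation p = 0.0605), and supporting cells and tectorial membrane had r = 0.709 (permutation p = 0.022, adjusted p = 0.118, rank correlation 0.648, permutation p = 0.0489). Without Vehicle 3 and Vehicle 4 these were 0.127 and 0.190, and within the groups 0.554 and 0.491. The relation was negative with adipocytes (r = -0.745, permutation p = 0.0143, adjusted p = 0.100, rank correlation -0.733, permutation p = 0.0204), with spiral ganglion neurons (r = -0.744, permutation p = 0.0137, adjusted p = 0.100, rank correlation -0.721, permutation p = 0.0228) and with skeletal muscle (r = -0.704, permutation p = 0.0242, adjusted p = 0.125, rank correlation -0.721, permutation p = 0.0238). Without the 2 mice farthest from the median of each list these were -0.456, -0.369 and -0.621, and within the groups -0.348, -0.499 and -0.527. The part of any list in the level of Slc7a11 was not tested.

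**Figure D4:**
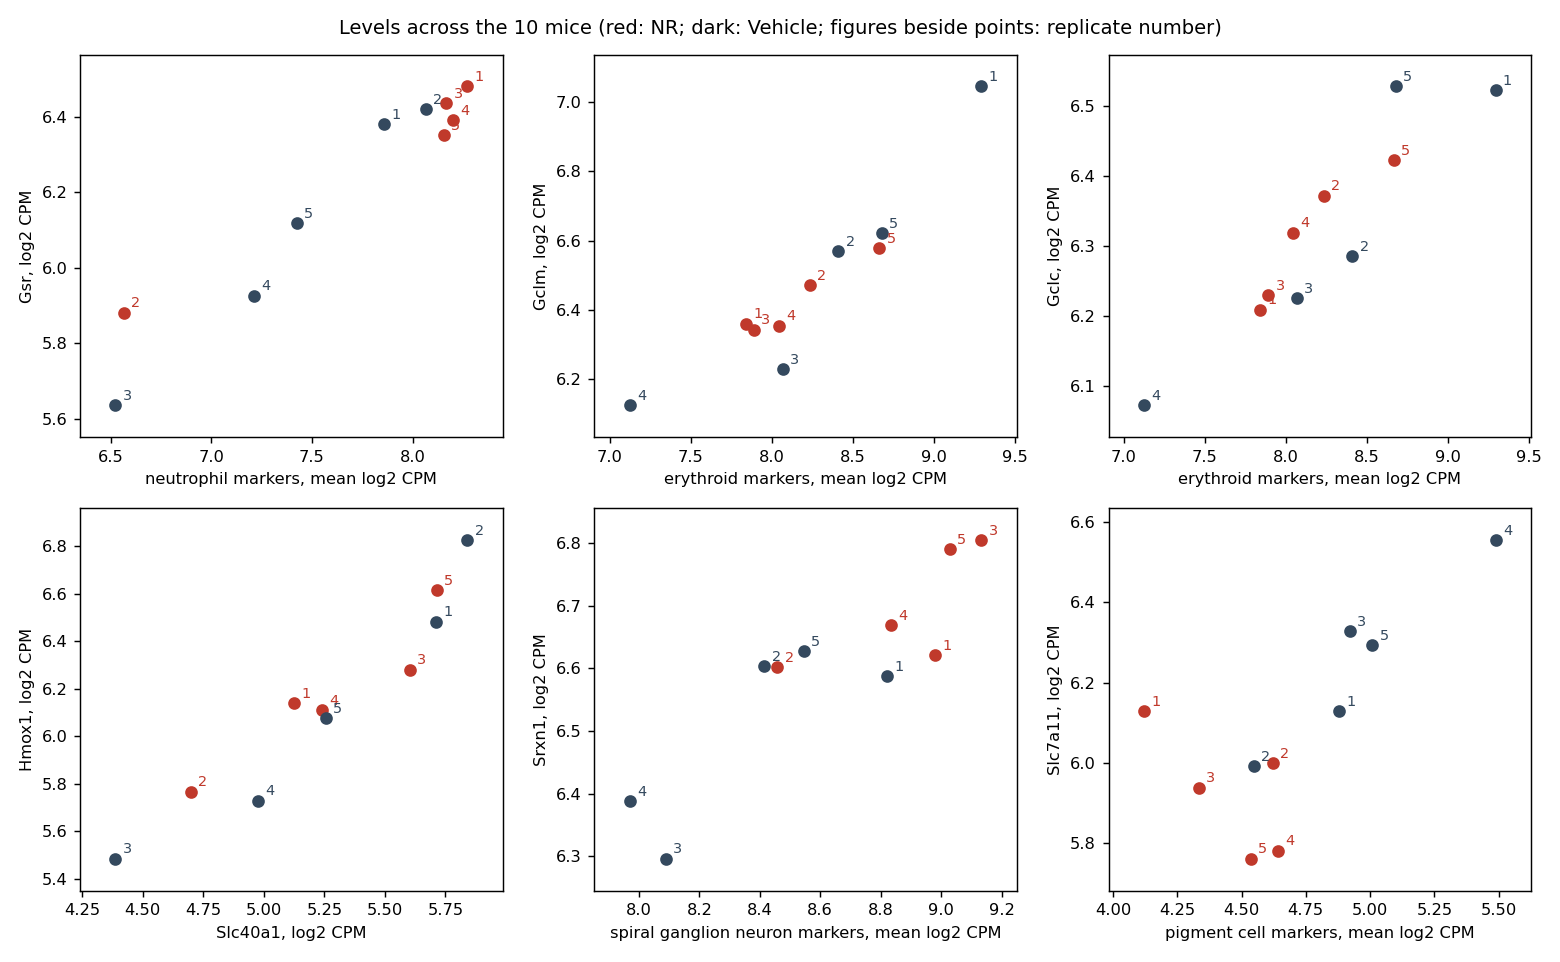
Log2 CPM of 6 members (vertical axes) against the mean log2 CPM of a marker list or the log2 CPM of Slc40a1 (horizontal axes) in the 10 mice, with replicate numbers beside the points. NR-treated mice are red and non-treated mice dark. Gsr rises with neutrophil markers (r = 0.966), Gclm and Gclc with erythroid markers (r = 0.937 and 0.926), Hmox1 with Slc40a1 (r = 0.958), Srxn1 with neuronal markers (r = 0.888) and Slc7a11, less closely, with pigment markers (r = 0.713). Slc40a1 was taken from the 5 genes most correlated with Hmox1 in these data, so its r was high by choice and cannot be compared with those of the lists.

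Genes related to the members but not counted among them gave the same mixed picture. Nqo2, Hmox2, Txnrd2, Txnrd3, Nfe2l1 and Slc7a10 did not pass an unadjusted p of 0.05. Hmox2, the heme oxygenase that cells make constantly, had 53.7 ± 2.79 CPM in NR-treated and 52.5 ± 2.53 CPM in non-treated mice (SD, n = 5 each), a narrow range beside that of Hmox1. Txnrd2, the mitochondrial thioredoxin reductase, had a log2 fold change of -0.20 ± 0.187 (SE; edgeR, adjusted p = 0.738). Nfe2l1, a relative of Nfe2l2, was more abundant per length than Nfe2l2 at 86.6 RPKM, with a log2 fold change of 0.02. Slc7a5, a transporter of large neutral amino acids, was lower in NR-treated mice, with 117 ± 13.5 against 141 ± 20.6 CPM (SD, n = 5 each; log2 fold change -0.27 ± 0.108, SE; edgeR, unadjusted p = 0.0286, adjusted p = 0.476).

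Beyond the members, 124 genes of the wider NRF2 pathway were listed in 7 groups, and 120 were tested. At an unadjusted p of 0.05, 2 were higher and 8 lower in NR-treated mice (2 of the 8 in the ATF4 list), together 8.33% of those tested, beside 9.71% of all genes. None passed an adjusted p of 0.05 in edgeR, the smallest being 0.408. Their median log2 fold change was -0.007, beside -0.009 over all tested genes. Without TMM scaling the counts were 7 higher and 6 lower, with 1188 higher and 574 lower among all tested genes in place of 886 and 894. Without Vehicle 3 and Vehicle 4, 8 were higher and 17 lower, which is 20.8% of the pathway genes beside 9.69% of all genes tested in that fit. Without Vehicle 2, 9 were higher and 6 lower (12.5% beside 10.5%), without NR 2, 8 and 8 (13.3% beside 13.1%), and without NR 3 and NR 5, 3 and 6 (7.50% beside 4.50%).

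Of the 10 pathway genes past an unadjusted p of 0.05, those with the largest changes, Gsta2 and Gsta4, were in the list of glutathione synthesis and use. Of its 35 tested genes, 1 was higher and 3 were lower at an unadjusted p of 0.05. Gsta4, a glutathione transferase that takes up the lipid peroxidation product 4-hydroxynonenal, had 186, 285, 236, 276 and 205 CPM in NR 1 to NR 5 and 275, 285, 375, 418 and 386 CPM in Vehicle 1 to Vehicle 5. Vehicle 3, Vehicle 4 and Vehicle 5 lay above every NR-treated mouse, and its log2 fold change was -0.55 ± 0.151 (SE; edgeR, unadjusted p = 0.0038, adjusted p = 0.408). Gstt2, a theta class transferase, had 28.0 to 33.7 CPM in NR-treated and 33.8 to 40.9 CPM in non-treated mice, which did not overlap (log2 fold change -0.28; edgeR, adjusted p = 0.408). The third gene that was lower, Gsta2, was named after its values were seen (9.0 ± 3.6 against 16.7 ± 3.7 CPM, SD, n = 5 each). Gstm1, an abundant mu class transferase, was higher, at 198 ± 19.2 against 176 ± 13.8 CPM (SD, n = 5 each; edgeR, adjusted p = 0.505), with an unadjusted p above 0.05 in 8 of 20 alternatives. These transferases belong to families of similar sequence, so some reads may have been left uncounted or assigned to another member. Gpx4, the peroxidase of lipid hydroperoxides and the most abundant gene of the list per length, had a log2 fold change of 0.02.

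**Figure D5:**
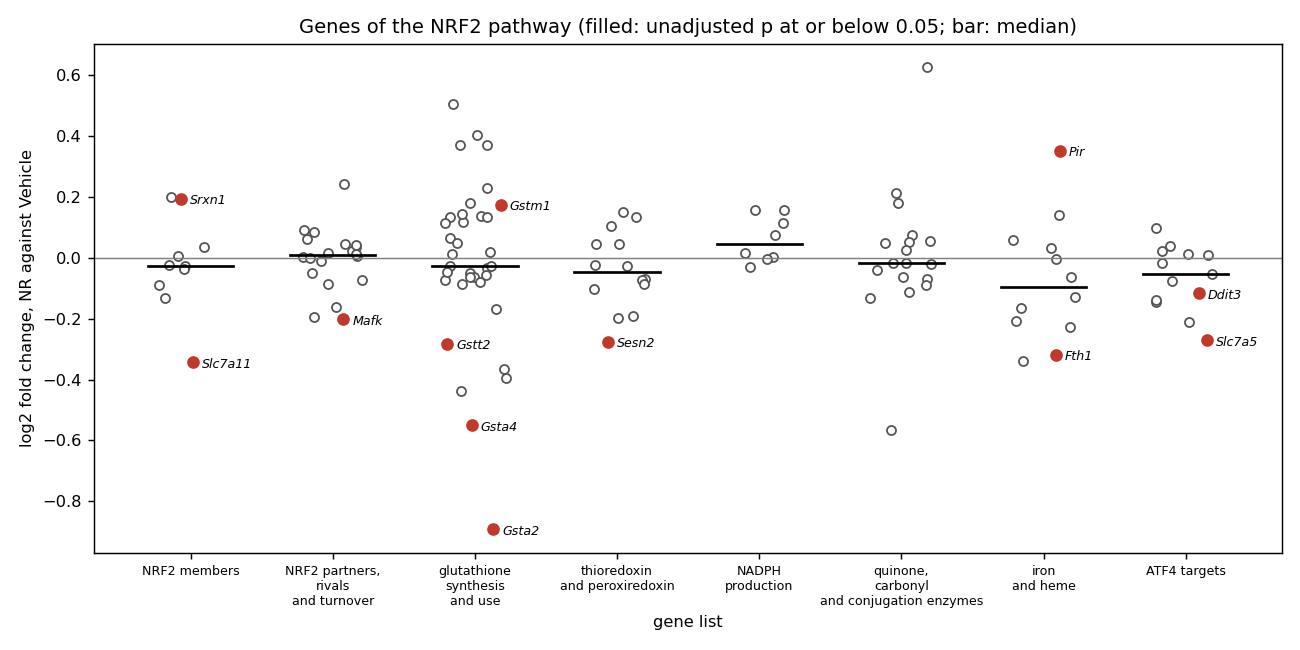
Log2 fold change of NR-treated against non-treated mice for the 10 members and the tested genes of 7 pathway lists, 1 point per gene, from edgeR with n = 5 per group. Filled, named points have an unadjusted p at or below 0.05 and bars are medians. All list medians lie between -0.10 and 0.05, and of the 10 named pathway genes 8 are below 0 and 2, Gstm1 and Pir, above it.

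In the list of iron and heme, 1 of 12 genes was higher and 1 lower. Fth1, the ferritin heavy chain that stores iron, had 2541, 2339, 2379, 2606 and 2246 CPM in NR 1 to NR 5 and 2668, 3393, 2914, 2749.6 and 3374 CPM in Vehicle 1 to Vehicle 5. The groups did not overlap, and its log2 fold change was -0.32 ± 0.091 (SE; edgeR, unadjusted p = 0.00513, adjusted p = 0.420). Fth1 has many processed pseudogenes, so some of its reads may have been left uncounted or assigned to them. Pir, an iron-binding nuclear protein, was higher, at 13.4 ± 1.13 against 10.5 ± 2.11 CPM (SD, n = 5 each; edgeR, adjusted p = 0.476).

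Among thioredoxin and peroxiredoxin genes, 1 of 14 was lower and 0 were higher. It was Sesn2, a stress protein that restrains mTORC1, with 14.9 to 16.1 CPM in NR-treated and 16.6 to 20.9 CPM in non-treated mice, without overlap (log2 fold change -0.28 ± 0.078, SE; edgeR, unadjusted p = 0.00463, adjusted p = 0.420). Prdx2, the most abundant peroxiredoxin of the list per length, had 438 ± 22.9 against 470.1 ± 105 CPM (SD, n = 5 each; edgeR, adjusted p = 0.811).

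The partners, rivals and turnover factors of NRF2 had 1 of 20 genes lower and 0 higher. Mafk, a small MAF protein that pairs with NRF2, had 36.8 ± 4.97 against 42.3 ± 2.50 CPM (SD, n = 5 each; edgeR, unadjusted p = 0.0422, adjusted p = 0.499), and its unadjusted p was above 0.05 in 12 of 20 alternatives. Sqstm1, which encodes p62 and draws KEAP1 into autophagy, was the most abundant of them per length at 141 RPKM, with a log2 fold change of 0.06.

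Of the genes that make NADPH (8 tested) and of the quinone, carbonyl and conjugation enzymes (18 tested), 0 passed an unadjusted p of 0.05. Their most abundant genes per length were Taldo1, of the pentose phosphate pathway, with a log2 fold change of -0.03, and Ephx1, microsomal epoxide hydrolase, with -0.13 (edgeR, adjusted p = 0.921 and 0.765).

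ATF4, the transcription factor of the amino acid response, is known to drive Slc7a11 as well, and its targets were listed for that reason. Of 13 tested, 2 were lower and 0 higher at an unadjusted p of 0.05. They were Slc7a5, given above, and Ddit3, which encodes CHOP, with 32.2 ± 0.684 against 35.0 ± 1.84 CPM (SD, n = 5 each; log2 fold change -0.12; edgeR, unadjusted p = 0.0486, adjusted p = 0.512). The unadjusted p of Ddit3 was above 0.05 in 16 of 20 alternatives, reaching 0.149, and that of Slc7a5 in 6, reaching 0.0825. Atf4 itself had a log2 fold change of -0.05 ± 0.057 (SE; edgeR, adjusted p = 0.764).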

How the data were processed

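The files deposited by the authors hold raw counts of reads on genes for 5 NR-treated and 5 non-treated mice, 1 file per mouse, with no normalization. Novogene had filtered the reads with fastp, aligned them to mm10 with STAR 2.6.1d, allowing mismatches, and counted them with featureCounts 1.5.0 by default settings, which ignore strand. Reads from an antisense partner therefore cannot be told apart. Of the members, Keap1 shared 10.9% and Gclm 4.71% of its exonic bases with other genes of GENCODE M21, and the other 8 shared 0%. The study used DESeq2 1.26.0. Experiments other than this RNA-seq were not analysed here.

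Total counts were 17060379 to 24419230 per mouse. Genes that passed filterByExpr (18329) were tested with edgeR 4.0.16 (TMM, glmQLFit, glmQLFTest; R 4.3.3), NR against Vehicle with no covariate, since the labels name no batch. P-values were adjusted over all tested genes by Benjamini-Hochberg. Log2 CPM used a prior count of 2. All 252 ways to label the mice entered the exact permutation tests, and permutation tests of correlations 100000 resamples. Each mouse was 1 sample, and no pair of libraries agreed within sampling noise. The model fits were tested on simulated counts. DESeq2 1.42.0, limma 3.58.1 voom, other scalings, filters and dispersions, a replicate block and leaving out mice were tried as alternatives. RPKM used the gene lengths of the files. Motifs were counted in RefSeq promoter windows with Python 3.11.15.

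The members and gene lists were chosen with earlier results of these data known. Named are all members, their 7 relatives, and in each pathway list the most abundant tested gene per length and, for either direction, at most 2 genes of smallest unadjusted p at or below 0.05. For the 2 members that varied most (Hmox1 and Gsr), the 5 genes of highest correlation are named. The pigment list, the alternatives without Vehicle 3 and Vehicle 4 and without NR 3 and NR 5, and the mention of Gsta2 were added after values were seen. 1 marker of the erythroid list was left out and is not reported here.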

Additional observations from a re-analysis of the deposited data

Results flagged for a closer look

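The level of Gsr in NR 2, 58.8 CPM, stood apart from those of the other 4 NR-treated mice, the nearest of which had 81.5 CPM. The gap was 0.747 of the range of the group, above the critical value of 0.71 of Dixon's test for 5 samples. It was the 1 such value among the 20 groups checked (10 members in 2 groups), and chance gives about 1 in 20. Without NR 2, the log2 fold change of Gsr was 0.30 (edgeR, unadjusted p = 0.0601). The cause was not tested.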

How the results depend on the processing

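Under all 20 alternatives, Slc7a11 stayed lower (log2 fold change between -0.39 and -0.21) and Srxn1 higher (between 0.10 and 0.23). An unadjusted p of 0.05 was missed by Slc7a11 under 2 alternatives and by Srxn1 under 3. Of the pathway genes past it, it was missed by Ddit3 under 16, Mafk under 12, Gstm1 under 8, Slc7a5 under 6, Pir under 4 and Fth1 under 1. The count of members at that level was 1 to 2 as single mice were left out, beside 6.23% to 13.1% of all tested genes. It was 1 without NR 3 (beside 6.23%) and 1 without both Vehicle 3 and Vehicle 4 (beside 9.69%). Without both NR 3 and NR 5 it was 0 (beside 4.50%). The count whose groups do not overlap was 0 to 1, and was 1 without Vehicle 2, when Slc7a11 no longer overlapped. The share over all tested genes was 1.65% with all mice and was not counted without Vehicle 2. The difference in the log2 ratio of Nfe2l2 to Keap1 ran from -0.13 to -0.021 as single mice were left out, and that of Gclc to Gclm from -0.0023 to 0.13. Members and related genes with small changes turned direction when single mice were left out, over ranges of -0.076 to 0.014 for Nfe2l2, -0.12 to 0.23 for Hmox1, -0.080 to 0.030 for Gclc, -0.22 to 0.027 for Gclm, -0.047 to 0.032 for Nqo2, -0.0030 to 0.057 for Nfe2l1, -0.15 to 0.27 for Slc7a10, -0.0011 to 0.056 for Gpx4, -0.20 to 0.0053 for Prdx2, -0.078 to 0.024 for Taldo1 and -0.20 to 0.0055 for Ephx1. With library totals in place of TMM the values were 0.0020 for Nfe2l2, 0.00026 for Gclc and 0.0073 for Nqo2. With limma voom Slc7a10 had -0.087. Without Vehicle 3 and Vehicle 4, Hmox1 had -0.28 and Ephx1 0.14. Without NR 3 and NR 5, Hmox1 had -0.18 and Slc7a10 -0.14. Except where a mouse was left out, the cause of these turns was not tested.

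The shared replicate numbers did not pair the mice. The deviations of same-numbered mice from their group means had correlations between -0.22 and 0.17, and 1 of 5 mice correlated best with its own number. With the replicate number as a block, 2 members still passed an unadjusted p of 0.05, beside 9.03% of all tested genes. The smallest adjusted p of a member was then 0.529, and Slc7a10 had -0.022. With 5 mice per group, the permutation test cannot give a p below 0.00794. Intervals such as that of Hmox1, from -0.53 to 0.54 on the log2 scale, leave room for changes of moderate size that this number of mice could not show.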
